A study of Mus musculus with 40 samples.

Results

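The genes described here encode the proteins of the cytosolic ribosome, measured in mouse spleen B cells with and without Dock10, a guanine nucleotide exchange factor. They were chosen by symbol. A gene was taken if its symbol was Rpl or Rps followed by a digit, or was Rplp0, Rplp1, Rplp2 or Rpsa, and symbols of pseudogenes, S6 kinases and Rps19-binding proteins were left out. The rule gave 81 of the 21892 named genes on the array, read by 178 probes. Of these, 41 belong to the large subunit, 26 to the small subunit and 3 to the stalk, and these 70 are called core genes below. Another 9 are paralogs, relatives of core genes taken from a list of names, and 2 were not on that list and were placed apart, Rps23rg1, a retrogene copy of Rps23, and Rpl32l. RefSeq lists Rps4l as a transcribed pseudogene and Rps3a3 as a pseudogene.

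All mice were C57BL/6 and 12 weeks old, either wild-type (WT) or Dock10 knockout (KO), and spleen B cells were isolated by negative selection. WT_Pre and KO_Pre (n = 10 each) are cells before culture. B cells from mice numbered 6 to 10 were in addition cultured for 18 h in RPMI-1640 with fetal calf serum. The groups WT_Ctrl and KO_Ctrl (n = 5 each) had medium only, and WT_IL4 and KO_IL4 (n = 5 each) had 10 ng/ml of IL-4. By the labels, each of the 40 arrays set its sample, in Cy5, against 1 pool of KO_Pre RNA from mice 6 to 10, in Cy3. A value is therefore the log2 ratio of a transcript to that pool, and it gives no level that could be set against another gene or used to check the cell type.

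A ribosome joins a small subunit, which reads the mRNA, to a large subunit, which forms the peptide bond. Most of its proteins are needed in equal numbers. Their mRNAs are abundant, and in mammals they begin with a run of pyrimidines, the 5′ terminal oligopyrimidine (TOP) motif, through which mTORC1 and LARP1 regulate their translation. B cells that leave rest enlarge their ribosome pool, and IL-4 is a T helper cytokine that activates resting B cells. Ribosomal protein genes have many near-identical processed copies in the mouse genome, so a probe can read more than 1 locus.

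Several arrays stood apart. Before culture, the arrays numbered 1 to 4 and 10 of both genotypes had Xist ratios of 4.74 to 5.92 and ratios of the Y-linked Eif2s3y of -11.14 to -10.10. In every other array, the cultured arrays numbered 10 included, Xist was at or below 0.85 and Eif2s3y at or above -0.15. The dark corner spots, which hold no target, lay at 0.14 to 1.08 in the 8 arrays before culture numbered 6 to 9 and at -0.19 or below in all others. Counts of calls without the arrays before culture numbered 10, and with the dark corner ratio as a covariate, are given with the comparisons. Of the arrays of mice 6 to 10 before culture, only those numbered 10 lay in the dark corner range of the cultured arrays. Against cells before culture this covariate is therefore largely confounded with culture and can absorb a culture difference. Dock10 itself was lower in KO than in WT cells, with a difference of -0.38 before culture (adjusted p = 1), -0.54 in medium (adjusted p = 0.0295) and -1.07 under IL-4 (adjusted p = 0.000223). Its probes may lie outside the deleted part, so they do not check the genotype.

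The promoters are shown first because the pyrimidine run is the sequence these genes are known to share. A RefSeq promoter on GRCm38.p6 was matched for 65 of the 81 genes. The 30 bases around the annotated start, 15 on each side, were searched on the gene's strand for a run of at least 7 letters that are each C or T. Capitals mark the longest such run, and windows with none are all in lower case. Rps6, Rps27, Rplp2, Rpl28, Rpl35 and Rps18 are core genes with a run, Rps2 is a core gene without one, and the last 4 are paralogs.
Rps6, chr4:86857353-86857382, minus strand: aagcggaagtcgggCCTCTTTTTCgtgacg
Rps27, chr3:90213634-90213663, minus strand: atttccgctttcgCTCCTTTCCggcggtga
Rplp2, chr7:141447636-141447665, plus strand: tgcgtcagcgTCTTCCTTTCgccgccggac
Rpl28, chr7:4792950-4792979, plus strand: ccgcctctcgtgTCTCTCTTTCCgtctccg
Rpl35, chr2:39005117-39005146, minus strand: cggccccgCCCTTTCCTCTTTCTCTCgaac
Rps18, chr17:33955651-33955680, minus strand: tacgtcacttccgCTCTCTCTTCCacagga
Rps2, chr17:24720048-24720077, plus strand: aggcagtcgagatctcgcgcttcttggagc
Rpl22l1, chr3:28805493-28805522, plus strand: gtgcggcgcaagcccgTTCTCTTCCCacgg
Rps27l, chr9:66946071-66946100, plus strand: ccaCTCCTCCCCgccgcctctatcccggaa
Rpl7l1, chr17:46782642-46782671, minus strand: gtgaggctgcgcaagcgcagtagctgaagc
Rpl10l, chr12:66284387-66284416, minus strand: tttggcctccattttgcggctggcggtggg

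A run was found in 32 of the 65 windows (49.2%), against 18.5% of all 27025 promoter windows. For 10 genes with several entries only 1 was counted, and the comparison also took 1 entry per gene. Among these 10, Rpl10a, Rpl19, Rpl35a, Rps19, Rps21, Rps24 and Rps27l have 1 window with a run and at least 1 without. A run covered the annotated start in 19 windows (29.2%), against 5.19% of all windows. On the opposite strand a run stood in 3 of the 65 windows (4.62%) and in 19.9% of all windows. Core genes and the rest had close shares of a run anywhere in the window, with 27 of 56 (48.2%) and 5 of 9 (55.6%). A run covered the start in 17 core genes (30.4%) and 2 of the rest (22.2%), Rpl32l and Rps23rg1, so in no paralog. A C at the start followed by 4 letters C or T stood in 13 of the 65 windows (20%), against 2.49% of all windows. These were 12 core genes (21.4%) and 1 of the rest (11.1%). A match describes the letters of these windows, and the windows depend on where RefSeq places the start.

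The measured ratios of the ribosomal protein transcripts varied little between arrays. Values are means over probes, with 104 probes for the 41 large-subunit genes, 56 for the 26 small-subunit genes and 10 for the 9 paralogs. All 21892 genes together had 30625 probes. The part of probe number and signal level in the SDs below was not tested. Over the 40 arrays the SD of a core gene's log2 ratio ran from 0.076 to 0.397 with a median of 0.143, against a median of 0.512 over all genes. Of the 70 core genes, 59 lay below the 10th percentile of all genes' SD. Rpl37, a zinc-finger protein of the large subunit, had the lowest SD of all 81 (0.076), followed by Rpl23 (0.077) and Rpl24 (0.078). At the other end of the core genes stood Rps19 (0.397), Rpl21 (0.352) and Rps25 (0.332).

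The median SD was 0.137 in the large subunit and 0.154 in the small subunit. It was 0.220 in 78 genes of the mitochondrial ribosome, 0.247 in 33 factors of ribosome biogenesis and 0.187 in 17 TOP mRNA genes outside the ribosome. The 9 paralogs had a median SD of 0.444, and 4 of them exceeded the median of all genes: Rps27l (0.515), Rpl3l (0.743), Rpl10l (0.832) and Rpl39l (0.942). Rpl3l is known from muscle and Rpl10l and Rpl39l from testis. The highest and lowest arrays were less than 1 log2 unit apart for 65 of the 81 genes and for 3125 of the 21892.

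**Figure D1:**
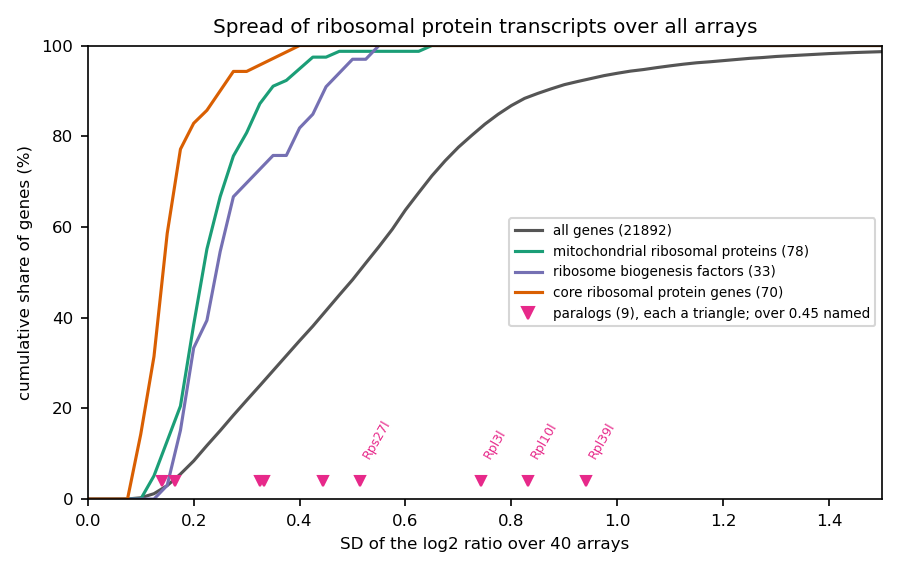
Cumulative share of genes (%) against the SD of the log2 ratio over 40 arrays, for all genes, 70 core ribosomal protein genes, 78 mitochondrial ribosomal proteins and 33 biogenesis factors, with triangles for the 9 paralogs. The core genes rise first, with a median SD of 0.143 against 0.512 for all genes, and 4 paralogs lie to the right of the median of all genes.

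Before culture no ribosomal protein gene was called between genotypes. KO_Pre against WT_Pre gave 0 of 81 genes in either direction with limma, as it did for all genes (0%). At an unadjusted p under 0.05 there were 0 of the 81 and 892 of the 21892. The median absolute difference was 0.021 in the 81 genes and 0.091 in all genes, and an absolute difference over 0.5 was seen in 0 of 81 and 2.64% of all genes. The 81 differences ran from -0.33 (Rpl39l, SE 0.38) to 0.14 (Rps27l, SE 0.20). In the core genes they ran from -0.06 to 0.13. Rpl32, often used as a reference gene, differed by 0.03, and Rplp0, another such gene, by -0.03.

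After culture without IL-4, 2 ribosomal protein genes were higher and 2 lower in KO_Ctrl than in WT_Ctrl, 4 of 81 against 15.3% of all genes (6.87% higher and 8.43% lower). A difference over 0.5 in size was seen in 0 of the 81 genes and 21.7% of all genes. Rps2, a small-subunit protein near the mRNA entry channel, was the first of those higher. Its log2 ratios in KO_Ctrl were -0.09, 0.10, 0.14, 0.20 and 0.28, and in WT_Ctrl -0.16, -0.20, -0.29, -0.16 and -0.24. Every KO_Ctrl array lay above every WT_Ctrl array. The difference was 0.34 (SE 0.079, adjusted p = 0.00404), and all probes of Rps2 passed on their own. It missed the threshold under quantile normalization and in a fit of the 2 groups alone.

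Rpl12, which sits at the base of the stalk, lay at 0.68, 0.66, 0.37, 0.65 and 0.60 in KO_Ctrl and at 0.37, 0.29, 0.28, 0.21 and 0.21 in WT_Ctrl. The lowest KO array lay just above the highest WT array. The difference was 0.32 (SE 0.095, adjusted p = 0.0219). In 7 of 20 alternatives, median centring and the omission of KO_Ctrl array 7, WT_Ctrl array 9 or WT_Ctrl array 10 among them, it was not called. Rpl21, a large-subunit protein, was lower by -0.38 (SE 0.099, adjusted p = 0.00906), with -0.80 to -0.50 in KO_Ctrl and -0.41 to -0.01 in WT_Ctrl, so the groups did not overlap. Only 1 of its 3 probes passed (-0.74), and the others gave -0.32 and -0.08. Rps9, a small-subunit protein tied to decoding accuracy, was lower by -0.22 (SE 0.075, adjusted p = 0.0427), and 11 of 20 alternatives did not call it. Of 9 B cell markers 7 were lower in KO_Ctrl and 0 higher, and their part in these results was not tested.

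With IL-4, 5 genes were higher and 8 lower in KO_IL4 than in WT_IL4, 13 of 81 against 18.4% of all genes (8.57% higher and 9.85% lower). A difference over 0.5 in size was seen in 7 of the 81 and 30% of all genes. Rplp0 anchors the stalk that recruits elongation factors, and its ratios were 0.10, -0.04, -0.04, -0.06 and -0.17 in KO_IL4 and 0.42, 0.34, 0.22, 0.19 and 0.19 in WT_IL4. The groups did not overlap. The difference was -0.31 (SE 0.081, adjusted p = 0.00802). All 3 probes passed, with -0.28, -0.34 and -0.32, and all 20 alternatives kept the call. Rplp1 (0.18) and Rplp2 (-0.14), the other proteins of the stalk, were not called.

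Rpl21 differed again, by -0.57 (SE 0.099, adjusted p = 0.000480). Its KO_IL4 ratios ran from -0.54 to -0.34 and its WT_IL4 ratios from 0.05 to 0.20, with a clear gap between the groups. Of its 3 probes 2 passed (-1.10 and -0.63), and the third gave 0.01. Rpl12 (0.29, adjusted p = 0.0334) and Rps2 (0.24, adjusted p = 0.0350) were higher here too, but 11 of 20 alternatives lost each of these calls. The comparisons with and without IL-4 use cultures labelled as the same mice, so they are not independent.

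Other genes lower in KO_IL4 were Rps25 (-0.44), Rps20 (-0.35), Rpl10a (-0.31), Rpl36al (-0.23) and Rpl11 (-0.19). Rpl11 is one of the proteins that carry the 5S RNA and can bind Mdm2, and its partner Rpl5 differed by -0.06 and was not called. Rpl10a passed with all its probes, Rps25 with 1 of 2 (-0.69 and -0.18). Rps23rg1 was higher by 0.62 (SE 0.13, adjusted p = 0.00224), with 0.27 to 0.75 in KO_IL4 and -0.17 to -0.04 in WT_IL4. Its groups were apart in all arrays.

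The largest difference, 1.74 for Rpl10l (SE 0.37, adjusted p = 0.00205), came from 1 of its 2 probes. That probe gave 3.38 and the other 0.09. The called probe lay at 3.54, 2.25, 2.21, 3.30 and 3.74 in KO_IL4 and at -0.28, -0.79, -0.28, -0.59 and 0.07 in WT_IL4, with a wide gap. The other probe ran from -0.87 to 0.11 in KO_IL4 and from -1.76 to 0.14 in WT_IL4, with full overlap. The higher value of Rpl14 (0.56, adjusted p = 0.00687) also came from 1 of 3 probes, with 1.71 against 0.03 and -0.07. The split between genes higher and lower moved from 5 and 8 to 3 and 9 under median centring, to 2 and 3 under quantile normalization and to 3 and 10 with the dark corner covariate. Of 13 T cell markers 5 were lower and 2 higher in KO_IL4, and of 9 B cell markers 3 were lower and 1 higher. Their part in these results was not tested.

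**Figure D2:**
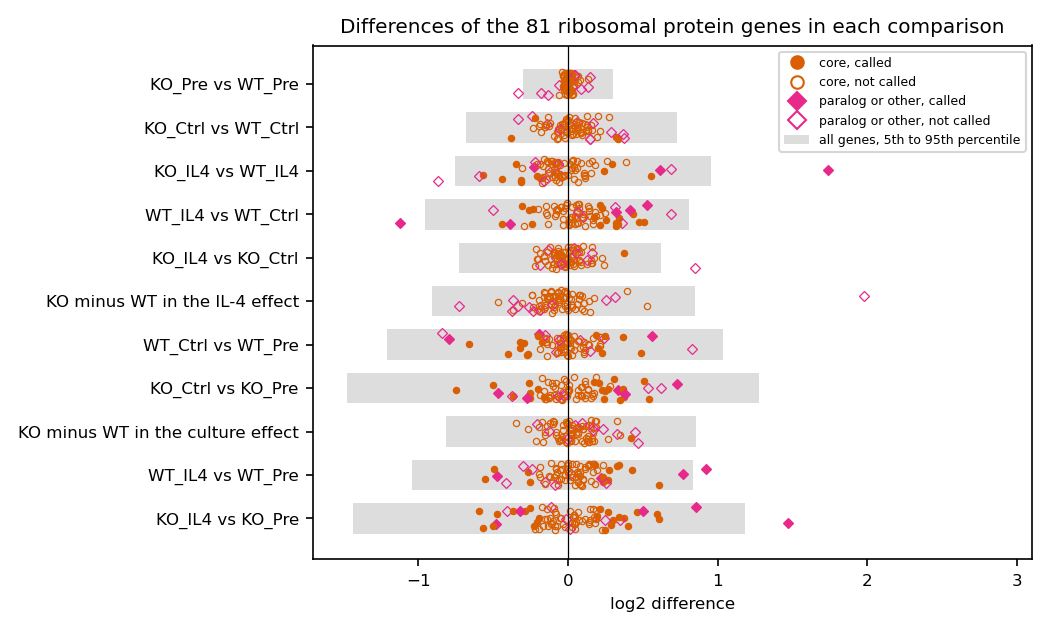
Log2 difference of each of the 81 genes in each of 11 comparisons, filled where called at an adjusted p under 0.05, with grey bars for the 5th to 95th percentile of all genes. Most core genes lie in a narrow band within the bars, and Rpl10l lies outside them in KO_IL4 vs WT_IL4 (1.74, called) and in the KO minus WT difference of the IL-4 effect (1.98, not called).

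In wild-type cells 15 of the 81 rose and 7 fell between WT_Ctrl and WT_IL4, a share close to that of all genes (26.9%, with 15.5% higher and 11.4% lower), so the count says nothing particular about the family. The median difference of the core genes was 0.05, while the median of all genes was 0.12. An absolute difference over 0.5 was seen in 5 of the 81 genes and in 33.8% of all genes. In knockout cells 1 of 81 rose and 0 fell, against 8.40% of all genes (4.00% higher and 4.39% lower), and 12 of the 81 had an unadjusted p under 0.05, as did 4729 of the 21892. There 1 of the 81 differed by over 0.5, against 18.4% of all genes.

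Rpl3, a large-subunit protein that reaches towards the peptidyl transferase centre, was the gene called in both genotypes. In WT_Ctrl its ratios were -0.10, 0.06, -0.04, -0.04 and -0.13, and in WT_IL4 0.55, 0.50, 0.38, 0.47 and 0.40. In KO_Ctrl they were -0.14, -0.13, -0.10, -0.04 and -0.02, and in KO_IL4 0.29, 0.30, 0.32, 0.34 and 0.19. Both genotypes showed a clear gap between cultures with and without IL-4. Wild-type Rpl3 rose by 0.51 (SE 0.064, adjusted p = 1.34e-06) and knockout Rpl3 by 0.37 (SE 0.064, adjusted p = 0.000279). Both probes passed in each genotype, with 0.56 and 0.46 in WT and 0.40 and 0.34 in KO. The wild-type call held in all 20 alternatives and the knockout call in 19, the exception being quantile normalization.

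Among other large-subunit proteins in wild-type cells, Rpl15 rose by 0.43 (SE 0.069, adjusted p = 3.88e-05), but 1 of its 2 probes passed (0.68 and 0.18). Rpl10, which joins the large subunit late in its maturation, rose by 0.32 (SE 0.071, adjusted p = 0.00131), from -0.30 to -0.07 in WT_Ctrl to 0.04 to 0.22 in WT_IL4. The groups did not overlap and all 3 probes passed. Rpl21 rose by 0.34 (adjusted p = 0.0117) with 2 of 3 probes. Rpl39, which lines the exit tunnel, rose by 0.26 (adjusted p = 0.0143) with 1 of 3 probes, and Rpl10a by 0.22.

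Of the small subunit, Rpsa, also known as a laminin receptor, rose by 0.34 (adjusted p = 0.00223). One of its 4 probes passed, at 1.08, and the others lay between -0.04 and 0.18. Rps6, the substrate of S6 kinase, rose by 0.23 (SE 0.060, adjusted p = 0.00618), with 0.53 in 1 probe and 0.11 and 0.04 in the others. Rps2 rose by 0.32 (adjusted p = 0.00338) with both probes, and Rps25 by 0.47 (adjusted p = 0.00155) with 1 of 2 (0.80 and 0.15). Rps27, a zinc-finger protein, went the other way. Its ratios were 0.10, -0.21, 0.03, 0.02 and -0.06 in WT_Ctrl and -0.21, -0.49, -0.23, -0.35 and -0.39 in WT_IL4, so the lowest array without IL-4 met the highest with it. It fell by 0.31 (SE 0.096, adjusted p = 0.0182), and each of its 4 probes passed, at -0.28 to -0.34. Rpl37a fell by 0.26 (adjusted p = 0.0332), a call that 12 of 20 alternatives lost, the replicate block among them (adjusted p = 0.0626).

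The paralogs Rpl7l1, Rpl36al and Rpl22l1 rose in wild-type cells with IL-4. Rpl7l1, a nucleolar relative of Rpl7, lay at 0.11, 0.44, 0.09, 0.11 and 0.27 in WT_Ctrl and at 0.61, 1.00, 0.70, 0.72 and 0.64 in WT_IL4, with no overlap. It rose by 0.53 (SE 0.11, adjusted p = 0.00112), while Rpl7 differed by 0.07 and was not called. Rpl36al rose by 0.41 (SE 0.071, adjusted p = 0.000103), while Rpl36a differed by 0.10. Rpl22l1 rose by 0.32 (SE 0.12, adjusted p = 0.0425) and Rpl22, whose protein is known in the mouse to repress Rpl22l1 mRNA, differed by 0.14 and was not called. The calls of Rpl7l1 and Rpl36al held in all 20 alternatives. Rpl10l fell by 1.12 (adjusted p = 0.0242) and Rpl14 by 0.44 (adjusted p = 0.0217), each through the single probe described above. Rps23rg1 fell by 0.38 (adjusted p = 0.0324), a call lost in 9 of 20 alternatives and with the replicate block (adjusted p = 0.0579).

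The IL-4 effect itself did not differ between genotypes for any of the 81 genes at the threshold, against 1.19% of all genes called by limma (0.608% higher and 0.585% lower). The effects were over 0.5 apart in 3 of the 81 and 27.7% of all genes. At an unadjusted p under 0.05 there were 10 of the 81 and 3569 of the 21892. The nearest to the threshold were Rpl10l (1.98, SE 0.52, adjusted p = 0.0551), whose probes gave 4.45 and -0.50, and Rpl36al (-0.37, SE 0.10, adjusted p = 0.0595). For Rpl36al the ratios in KO_Ctrl were -0.11 to 0.11 and in KO_IL4 -0.05 to 0.13, which overlap. The 70 core genes had the same sign of IL-4 effect in both genotypes in 45 cases, with Pearson r = 0.58 and Spearman 0.54. All 81 genes had it in 51 cases, with Pearson r = 0.03 but Spearman 0.52. These correlations are across genes, which are not independent replicates and share their arrays. In wild-type cells the split of 15 and 7 became 13 and 4 under median centring, 6 and 2 under quantile normalization and 16 and 2 with the dark corner covariate. It became 13 and 3 without the arrays of wild-type mouse 6. Between WT_Ctrl and WT_IL4, 4 of 9 B cell markers fell, 6 of 17 macrophage markers fell and 1 rose, and 4 of 10 NK cell markers rose and 1 fell. Their part in these results was not tested.

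**Figure D3:**
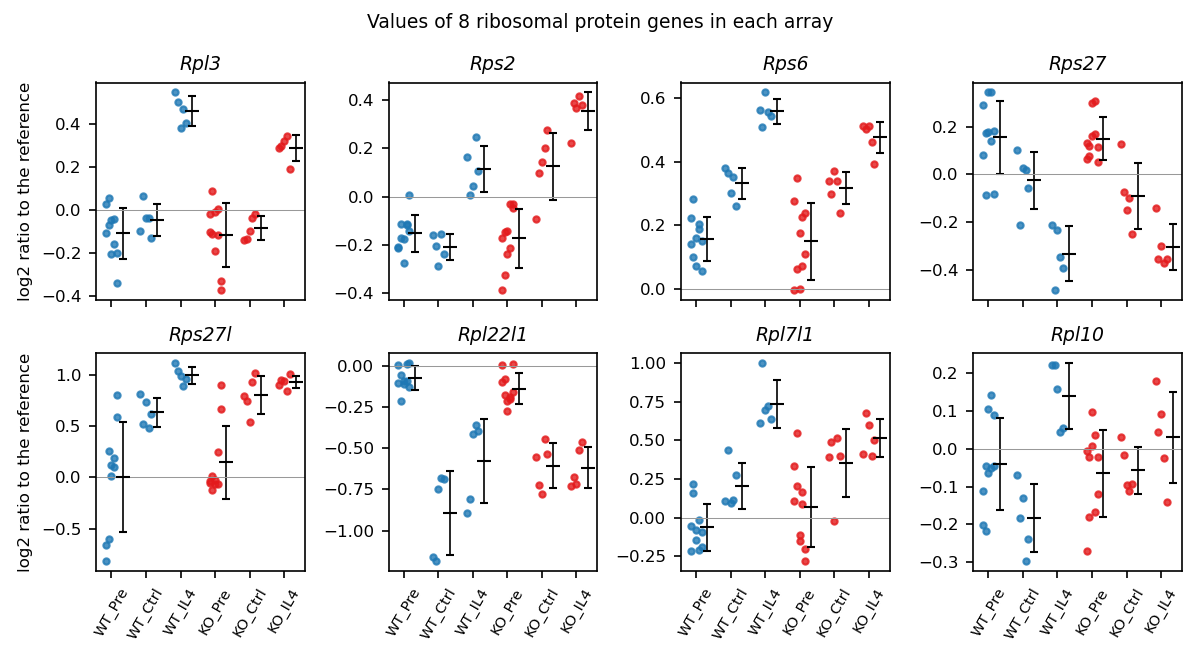
Log2 ratio to the reference pool in each array for 8 ribosomal protein genes, with 1 point per array and the mean and SD of each of the 6 groups. Rpl3 is apart between cultures with and without IL-4 in both genotypes, Rps2 is apart between KO_Ctrl and WT_Ctrl, and Rpl22l1 is lower in every cultured array than in every array before culture.

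After 18 h of culture without IL-4 the differences of the ribosomal protein genes were small. Their median absolute difference was 0.109 in wild-type and 0.133 in knockout cells, beside 0.399 and 0.504 over all genes. Between WT_Pre and WT_Ctrl, in the cells of mice 6 to 10, 7 of 81 rose and 11 fell, against 39.5% of all genes called (13.2% higher and 26.4% lower). Between KO_Pre and KO_Ctrl 15 rose and 10 fell, against 51.0% of all genes (19.8% higher and 31.2% lower). Differences over 0.5 were seen in 5 and 7 of the 81 and in 41.9% and 50.3% of all genes. In bulk RNA, fewer cells of a type and less RNA per cell cannot be told apart. The median of all genes shifted by -0.15 and -0.12 in these comparisons, and that of the 81 genes by -0.01 and 0.00, which became 0.12 and 0.10 under median centring.

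The balance of calls turned with the scaling. In wild-type cells it went from 7 higher and 11 lower to 20 and 2 under median centring and to 13 and 3 under quantile normalization, and with the dark corner covariate to 1 and 12. In knockout cells it went from 15 and 10 to 24 and 4, to 9 and 5 and to 3 and 9. Without the arrays before culture numbered 10 the wild-type counts were 13 and 9 and the knockout counts 21 and 13. Without wild-type mouse 6 the wild-type counts were 2 and 9.

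Markers of other cell types moved in the same comparisons. Of 10 NK cell markers, 9 fell in wild-type and 8 in knockout cells, with median differences of -2.26 and -1.19. Of 17 macrophage markers, 9 and 6 fell and 3 and 5 rose. Of 9 B cell markers, 2 fell and 1 rose in wild-type cells, and 7 fell in knockout cells. Their part in the ribosomal protein results was not tested.

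Called in both genotypes as higher after culture were Rps3, Rps6, Rps19, Rpl29 and the paralog Rps27l, and as lower Rpl21, Rpl37a, Rps21, Rps25 and the paralog Rpl22l1. These 10 were of 18 genes called in wild-type and 25 in knockout cells. Rps6 lay at 0.07 to 0.20 in the WT_Pre arrays of mice 6 to 10 and at 0.26 to 0.38 in WT_Ctrl, and at -0.01 to 0.24 in KO_Pre and 0.24 to 0.37 in KO_Ctrl. Wild-type groups did not overlap, and knockout groups met at KO_Pre array 10. It rose by 0.20 (adjusted p = 0.0111) and 0.24 (adjusted p = 0.00149). Rps3, which also acts in DNA repair, rose by 0.24 (adjusted p = 0.00592) and 0.35 (adjusted p = 0.000138), with 1 of 3 probes called in wild-type cells (0.60) and 2 in knockout cells (0.80 and 0.18). With the dark corner covariate the wild-type call of Rps3 was lost (0.20), as was that of Rpl29 (0.13 against 0.23), and 9 of 20 alternatives lost the latter.

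Rps19, mutated in human Diamond-Blackfan anaemia, differed between the arrays before culture. Its ratios were -0.10, -0.16, -0.16, -0.09 and 0.68 in WT_Pre of mice 6 to 10 and 0.77, 0.32, 0.50, 0.42 and 0.61 in WT_Ctrl. In KO_Pre they were -0.08, -0.07, -0.30, -0.09 and 0.59, and in KO_Ctrl 0.60, 0.44, 0.75, 0.36 and 0.47. In both genotypes the array numbered 10 before culture lay within the cultured range and the other 4 lay below it. The array numbered 5, not part of these comparisons, was high too, at 0.58 in WT_Pre and 1.08 in KO_Pre. Rps19 rose by 0.49 (SE 0.17, adjusted p = 0.0220) and 0.51 (SE 0.17, adjusted p = 0.0122). With the dark corner covariate, which is largely confounded with culture here, the knockout difference turned to -0.08. The wild-type call was lost in 7 of 20 alternatives, the omission of mouse 6 among them.

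Among genes lower after culture, Rpl37a, a zinc-finger protein of the large subunit, fell by 0.29 (adjusted p = 0.0122) and 0.37 (adjusted p = 0.00135). Its ratios were 0.15, -0.003, 0.24, 0.21 and 0.45 in WT_Pre and -0.06, -0.16, -0.06, -0.04 and -0.09 in WT_Ctrl. The groups did not overlap in either genotype, with -0.02 to 0.48 in KO_Pre and -0.37 to -0.11 in KO_Ctrl. Rpl21 fell by 0.40 and 0.75 and Rps21 by 0.27 and 0.25. Both Rpl21 calls were lost when every probe had to pass, and the wild-type call also under median centring. Rps25, which is required for some internal ribosome entry sites, fell by 0.66 and 0.50, again through 1 of 2 probes (-1.19 and -1.01 against -0.14 and 0.00), and the knockout call was lost with the dark corner covariate (-0.43).

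Rpl13a, known in human myeloid cells to silence mRNAs after its release from the ribosome, fell by 0.32 in wild-type cells (adjusted p = 0.00364) and differed by -0.18 in knockout cells without a call. The wild-type call was lost under median centring, under quantile normalization and when every probe had to pass. Rpl14 rose by 0.37 in wild-type cells (adjusted p = 0.0394), a call lost in 11 of 20 alternatives. Rpl39 fell by 0.32 in wild-type cells (adjusted p = 0.00208), a call lost under median centring and under quantile normalization. Rpsa fell there by 0.20 (adjusted p = 0.0450). Rpl5 rose by 0.27 in knockout cells (adjusted p = 0.00689), while Rpl11 fell there by 0.16 (adjusted p = 0.0422). Rps15 rose in knockout cells by 0.38, Rpl12 by 0.54 and Rps23rg1 by 0.38, and Rps3a3 fell by 0.28. With the dark corner covariate all 4 calls were lost, with differences of 0.06 for Rps15, 0.20 for Rpl12, 0.31 for Rps23rg1 and -0.21 for Rps3a3. Quantile normalization also lost Rps15 (0.19), Rps23rg1 (-0.0025) and Rps3a3 (-0.15), and Rps23rg1 was lost without KO_Ctrl array 8 (0.21) and in a fit of the groups compared alone. Rpl41, the smallest ribosomal protein, was called in no comparison, nor were Rpl32, Rps14, the gene of the human 5q- syndrome, Rps4x or its relative Rps4l.

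Of the paralogs, Rps27l, Rpl22l1, Rpl36al, Rpl7l1 and Rps3a3 were called in at least 1 genotype. Rps27l, a p53 target in human and mouse cells, was at -0.82, 0.26, 0.01, 0.10 and 0.81 in WT_Pre of mice 6 to 10 and at 0.81, 0.52, 0.74, 0.48 and 0.62 in WT_Ctrl. In KO_Pre it was at -0.03, -0.13, -0.06, -0.06 and 0.66, and in KO_Ctrl at 0.79, 0.74, 0.54, 0.93 and 1.01. Array 10 before culture again lay among the cultured values. Rps27l rose by 0.56 (SE 0.18, adjusted p = 0.0175) and 0.73 (SE 0.18, adjusted p = 0.00186). The first call was lost without WT_Pre array 6, and both were lost under quantile normalization and with the dark corner covariate, which gave 0.11 and 0.01. Rps27 differed by -0.19, not called, and fell by 0.26 (adjusted p = 0.0278).

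Rpl22l1 went down. It lay at -0.10, -0.22, -0.10, -0.09 and 0.02 in WT_Pre and at -1.16, -1.18, -0.75, -0.68 and -0.69 in WT_Ctrl, and at -0.27 to 0.00 in KO_Pre and -0.78 to -0.44 in KO_Ctrl. Every cultured array was below every array before culture in both genotypes. It fell by 0.79 (SE 0.12, adjusted p = 9.86e-06), held in all 20 alternatives, and by 0.47 (SE 0.12, adjusted p = 0.00163), lost under quantile normalization and with the dark corner covariate. Rpl22 was called in neither genotype (-0.07 and -0.05). Rpl7l1 rose by 0.34 in knockout cells (adjusted p = 0.0161).

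The effect of culture differed between genotypes for 1 of the 81 genes, Rps2, against 6.68% of all genes (2.22% higher and 4.46% lower), and the effects were over 0.5 apart in 0 of the 81 and 28.5% of all genes. Rps2 ran from -0.27 to 0.01 in WT_Pre and from -0.29 to -0.16 in WT_Ctrl, and from -0.39 to -0.05 in KO_Pre and from -0.09 to 0.28 in KO_Ctrl. It rose in knockout cells by 0.37 (SE 0.079, adjusted p = 0.000420), and the difference of the effects, KO minus WT, was 0.42 (SE 0.11, adjusted p = 0.0200). The call was lost under median centring, under quantile normalization and when only the groups compared were fitted, and it held in the other 27 alternatives.

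Cells cultured with IL-4 were also set against cells before culture. In wild-type cells 12 of 81 rose and 5 fell, against 26.9% of all genes (12.7% higher and 14.3% lower). In knockout cells 15 rose and 12 fell, against 46.4% (18.6% higher and 27.8% lower). Differences over 0.5 were seen in 4 and 7 of the 81 and in 30.3% and 47.4% of all genes. Rpl3 rose by 0.61 (SE 0.064, adjusted p = 2.61e-08) and 0.46 (SE 0.064, adjusted p = 1.80e-06), and Rps6 by 0.42 (adjusted p = 3.32e-06) and 0.40 (adjusted p = 5.03e-06). Rpl5 rose by 0.33 and 0.30, Rps2 by 0.27 and 0.60, and Rpl29 by 0.28 and 0.29. Rps27 fell by 0.50 (SE 0.096, adjusted p = 0.000221) and 0.47 (SE 0.096, adjusted p = 0.000263), Rpl37a by 0.55 and 0.57 and Rps21 by 0.27 and 0.37.

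Rplp0 rose by 0.34 in wild-type cells (adjusted p = 0.00168) and differed by 0.07 in knockout cells. In knockout cells Rplp1 rose by 0.27 (adjusted p = 0.0141) and Rplp2 fell by 0.20 (adjusted p = 0.0206). Rpl10l rose there by 1.47 (adjusted p = 0.00197), through the same single probe as before. Rps16 fell by 0.25 in wild-type cells, and Rps19 rose by 0.61, Rps25 fell by 0.50 and Rpl21 fell by 0.60 in knockout cells. The knockout calls of Rps25 and Rpl21 were lost when every probe had to pass. The paralog Rps27l rose by 0.92 (adjusted p = 0.000296) and 0.85 (adjusted p = 0.000480), Rpl7l1 by 0.77 (adjusted p = 6.82e-06) and 0.50 (adjusted p = 0.000892), and Rpl22l1 fell by 0.48 in both genotypes. With the dark corner covariate the knockout calls of Rps27l (0.24), Rps19 (0.10) and Rps27 (-0.28) were lost. Quantile normalization lost Rpl22l1 in both genotypes, Rps16 and Rps21 in wild-type cells and Rpl7l1 in knockout cells (0.36). Of 20 alternatives, 5 lost the wild-type call of Rps16 and 4 that of Rps21, median centring among them for each. Over these 20 the Rps21 difference ran from -0.30 to -0.0031. Of 17 macrophage markers 12 fell in wild-type and 9 in knockout cells, but Adgre1 of that list rose by 3.72 in knockout cells. Of 9 B cell markers 6 and 7 fell. The part of these markers in the results was not tested. Called in both genotypes were 13 genes, of 17 in wild-type and 27 in knockout cells. The all-gene median fell by 0.07 and 0.11, and under median centring the counts became 26 higher and 3 lower in wild-type and 21 and 8 in knockout cells. Quantile normalization gave 15 and 2, and 13 and 9. With the dark corner covariate they were 11 and 9, and 6 and 15.

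Probes of 1 gene did not always move together. Of the 55 genes with at least 2 probes, 12 had probes more than 0.5 apart in WT_Ctrl vs WT_Pre, and 12 in KO_Ctrl vs KO_Pre. Of the 18 such genes called in WT_IL4 vs WT_Ctrl, 5 had every probe called, Rpl3, Rpl10, Rps2, Rps16 and Rps27. In KO_IL4 vs WT_IL4 it was 3 of 11, and in KO_IL4 vs KO_Pre 9 of 16. Over all probes, limma called 15.1% in KO_Ctrl vs WT_Ctrl, 19.1% in KO_IL4 vs WT_IL4, 26.8% in WT_IL4 vs WT_Ctrl and 8.42% in KO_IL4 vs KO_Ctrl. For the steps from cells before culture it called 38.7% in WT_Ctrl, 51.0% in KO_Ctrl, 26.9% in WT_IL4 and 47.3% in KO_IL4, and for the KO minus WT differences 1.26% in the IL-4 effect and 6.72% in the culture effect. Calls in opposite directions within a gene were seen for Rpl15 in KO_Ctrl vs KO_Pre (0.20 and -0.37), for Rpl22 in WT_IL4 vs WT_Pre (0.41 and -0.27) and in KO_IL4 vs KO_Pre (0.31 and -0.26), and for Rpl39 in WT_IL4 vs WT_Pre (0.36 against -0.19 and -0.37). The gene means of Rpl22 and Rpl39 in these comparisons were near 0 and not called. Which transcripts or copies the probes read was not tested.

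**Figure D4:**
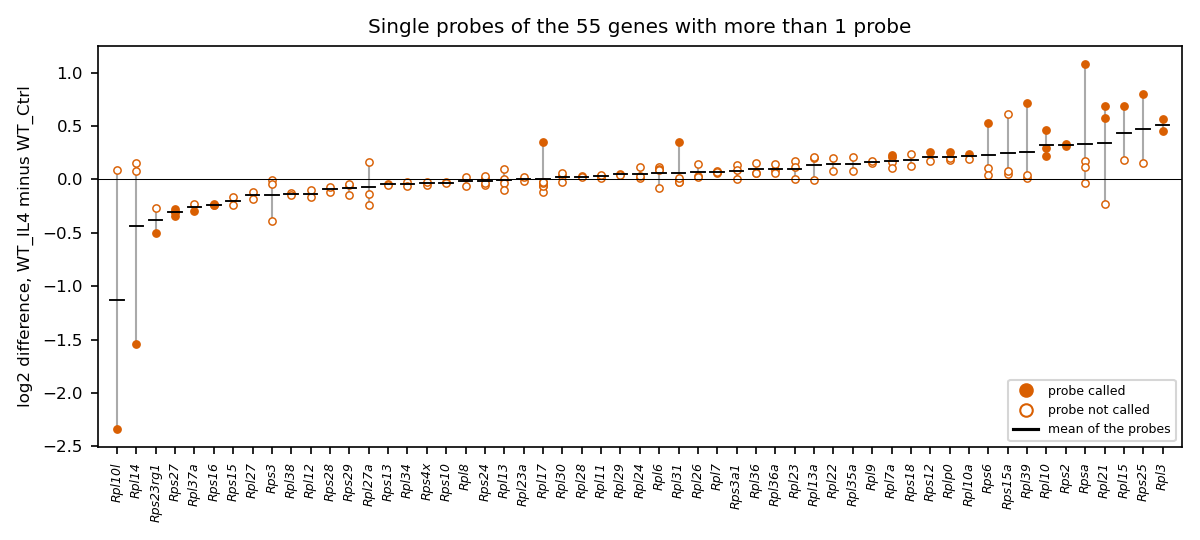
Log2 difference WT_IL4 minus WT_Ctrl of each single probe of the 55 genes with more than 1 probe, filled where called, with a bar at the mean of the probes. Rpl10l (-2.34 and 0.09), Rpl14 and Rpsa (1.08 in 1 probe) are spread most, while the probes of Rpl3, Rps2 and Rps27 lie close together.

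Genes that make or serve ribosomes were set beside them, from lists chosen for that role. With IL-4 in wild-type cells, 24 of 33 biogenesis factors rose and 1 fell (median 0.41), and 39 of 78 mitochondrial ribosomal proteins rose and 1 fell (median 0.26). In the core genes 12 of 70 rose and 5 fell (median 0.05). Of all genes 15.5% rose and 11.4% fell (median 0.12). Pes1, a nucleolar factor of the large subunit, rose by 0.96 (SE 0.13, adjusted p = 5.79e-06), and Ubtf, which activates RNA polymerase I, fell by 0.81. Of 17 TOP mRNA genes outside the ribosome 5 rose (median 0.16), among them Hnrnpa1 by 0.59 and the elongation factor gene Eef1g by 0.27. Eif4ebp1, whose protein blocks eIF4E until mTORC1 phosphorylates it, rose by 0.98 (adjusted p = 6.43e-07).

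In knockout cells the same step gave 1 of 33 biogenesis factors (median 0.11), 8 of 78 mitochondrial ribosomal proteins (median 0.14) and 1 of 17 TOP genes. Of all genes 8.40% were called there. Between KO_Ctrl and WT_Ctrl, 17 of 33 biogenesis factors were higher and 0 lower (median 0.33), Gnl3 by 0.69 and Nop58 by 0.55. Core genes gave 2 higher and 2 lower of 70 there (median 0.01), and all genes 6.87% higher and 8.43% lower. Myc, a regulator of ribosome production, was higher in KO_Ctrl than in WT_Ctrl by 0.83 (SE 0.18, adjusted p = 0.00179). Against cells before culture Myc was lower in both genotypes, with differences of -2.61 in WT_Ctrl and -1.38 in KO_Ctrl. Fau, a ribosomal protein made as a fusion and outside the symbol rule, fell by 0.29 with IL-4 in knockout cells (adjusted p = 0.0284).

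**Figure D5:**
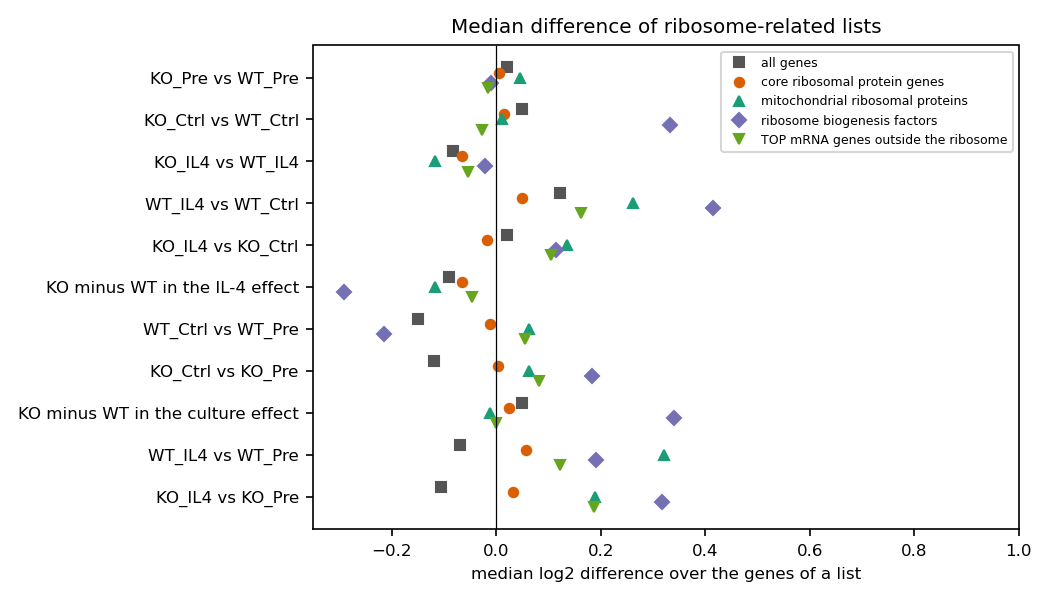
Median log2 difference over the genes of 4 lists and over all genes in each of 11 comparisons. On the deposited scale the core ribosomal protein genes stay within 0.07 of 0 throughout, while the biogenesis factors reach 0.41 in WT_IL4 vs WT_Ctrl. Median centring (not drawn) put the median of all ribosomal protein genes, paralogs included, at 0.18 in WT_IL4 vs WT_Pre and 0.12 in KO_IL4 vs KO_Pre. The same scaling gave 0.12 in WT_Ctrl vs WT_Pre, 0.10 in KO_Ctrl vs KO_Pre and -0.10 in KO_IL4 vs WT_IL4. For KO_Ctrl vs WT_Ctrl that median went from 0.026 to -0.001.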

How the data were processed

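RNA of 40 spleen B cell samples was hybridised to Agilent arrays with 2 dyes. Each deposited value is a log2 ratio of sample over pool for 1 probe on 1 array, and Agilent Feature Extraction 11.0.1.1 is named in the submitters' processing notes. How arrays were normalized and filtered, and on which build, is not stated in the labels. The spike-in probes had mean log2 ratios from -3.27 to 2.59. Their SDs over the 40 arrays were 0.451 to 0.549, above the highest SD of a core gene (0.397).

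The table held 39485 probes. Of these, 56 were controls, 8804 had no symbol and were left out, and 30625 with 1 symbol were averaged per gene, which gave 21892 genes with 0 missing values. No filter was used. All 81 ribosomal genes matched RefSeq by Entrez identifier. Signal intensities were not analysed here. Ratios have no depth, so precision is set by how many arrays a group has.

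Differences were tested with limma 3.58.1 in R 4.3.3 (lmFit, eBayes) and Benjamini-Hochberg adjustment over all genes, with calls at an adjusted p under 0.05. KO_Pre and WT_Pre were compared in 20 arrays, and 1 model over 30 arrays (mice 6 to 10) gave the remaining 10 comparisons. The pipeline was tested on simulated data. Genes and lists were chosen with earlier results of these data known. Genes named are the 5 called with the largest difference in each direction (3 for differences of effects), fixed role genes, paralogs with parents, genes with probes called in opposite directions, and Myc with up to 3 called members of each other list. Rps23rg1 and Rpl32l were placed apart after the files were seen, and single genes beyond the rule are named where a sentence contrasts them.

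Equal mouse numbers within a genotype are the same mouse per the labels, but Xist and Eif2s3y set the arrays numbered 10 before culture apart from the cultured arrays numbered 10, so that pairing is in doubt. KO_Pre array 10 had an Xist ratio of 4.99 and an Eif2s3y ratio of -10.71 to a pool that by the labels holds mouse 10. What that array or the pool holds is therefore in doubt too. Residuals of equal numbers correlated at 0.171 to 0.295 between WT_Ctrl and WT_IL4, at -0.281 to 0.276 between KO_Ctrl and KO_IL4, and at 0.225 to 0.543 between WT_Pre and KO_Pre.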

Additional observations from a re-analysis of the deposited data

Results flagged for a closer look

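In 282 groups of arrays of the named genes, the array farthest from the rest was checked with Dixon's criterion, by which chance marks about 1 group in 20, or 14.1 here, and 8 were marked. In KO_Ctrl, array 8 was low for Rpl12 (0.374, with 0.603 to 0.676 in the others) and for Rpl7l1 (-0.024, with 0.392 to 0.518). In WT_IL4, array 6 was low for Rpl13a (-0.174, with -0.063 to -0.025) and for Rps3a1 (-0.255, with -0.038 to -0.031), and array 7 was high for Rpl7l1 (0.999, with 0.615 to 0.724). Array 6 of KO_IL4 was low for Rps2 (0.221, with 0.367 to 0.419). Before culture, KO_Pre array 3 was high for Rpl39 (0.248, with -0.263 to -0.041) and WT_Pre array 10 for Rpl39l (2.910, with 0.231 to 1.587). The effect of culture on Rps2 differed between genotypes by 0.423 in the limma test of that difference.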

How the results depend on the processing

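Counts are of the 81 genes called higher and lower. Under median centring KO_Ctrl vs WT_Ctrl had 1 higher, KO_IL4 vs WT_IL4 3 higher, WT_IL4 vs WT_Ctrl 4 lower, WT_Ctrl vs WT_Pre 20 higher and 2 lower, KO_Ctrl vs KO_Pre 24 and 4, WT_IL4 vs WT_Pre 26 and 3, and the difference in culture effect 0 higher. Quantile normalization gave 0 and 0 for KO_Ctrl vs WT_Ctrl, 2 and 3 for KO_IL4 vs WT_IL4, 6 and 2 for WT_IL4 vs WT_Ctrl, 0 higher for KO_IL4 vs KO_Ctrl, 13 and 3 for WT_Ctrl vs WT_Pre, 9 and 5 for KO_Ctrl vs KO_Pre, 2 lower for WT_IL4 vs WT_Pre and 0 higher for the difference in culture effect. When every probe of a gene had to pass, KO_Ctrl vs WT_Ctrl gave 1 and 1, KO_IL4 vs WT_IL4 1 and 4, KO_Ctrl vs KO_Pre 8 and 4, WT_IL4 vs WT_Ctrl 6 and 3 and WT_Ctrl vs WT_Pre 2 and 5. The filter on SD left 3 of the 81 genes to test and gave 1 higher for KO_IL4 vs WT_IL4, KO_IL4 vs KO_Pre and the difference in IL-4 effect, 1 lower for WT_IL4 vs WT_Ctrl and otherwise 0. A fit of the groups compared alone gave 0 and 0 for KO_Ctrl vs WT_Ctrl, 5 lower for KO_IL4 vs WT_IL4, 2 and 7 for WT_Ctrl vs WT_Pre, 6 lower for KO_Ctrl vs KO_Pre, 6 and 3 for WT_IL4 vs WT_Pre and 0 higher for the difference in culture effect. With all 40 arrays, KO_IL4 vs KO_Ctrl had 1 lower, KO_Ctrl vs KO_Pre 16 lower, the difference in IL-4 effect 1 higher and that in culture effect 1 lower. Robust eBayes with a trend gave 4 and 2 for KO_IL4 vs KO_Ctrl and 1 lower for the difference in IL-4 effect. The dark corner covariate gave 3 higher for KO_IL4 vs WT_IL4, 2 lower for WT_IL4 vs WT_Ctrl, as well as 3 and 1 for KO_IL4 vs KO_Ctrl, 1 lower for each difference of effects, 1 higher for WT_Ctrl vs WT_Pre, 3 higher for KO_Ctrl vs KO_Pre, 9 lower for WT_IL4 vs WT_Pre and 6 higher for KO_IL4 vs KO_Pre. With the replicate block KO_IL4 vs KO_Ctrl had 2 higher, and no other count moved by over 1.5 times. Without the arrays before culture numbered 10, KO_Ctrl vs WT_Ctrl had 4 lower, KO_IL4 vs WT_IL4 13 lower, KO_IL4 vs KO_Ctrl 3 and 2, the difference in IL-4 effect 1 and 1, WT_Ctrl vs WT_Pre 13 higher, WT_IL4 vs WT_Pre 21 higher and KO_IL4 vs KO_Pre 23 higher. Without wild-type mouse 6, WT_IL4 vs WT_Ctrl had 3 lower, while WT_Ctrl vs WT_Pre had 2 higher, WT_IL4 vs WT_Pre 7 higher and the difference in IL-4 effect 1 lower.

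Leaving out 1 array at a time gave 1 to 3 higher and 1 to 2 lower for KO_Ctrl vs WT_Ctrl, 3 to 7 and 5 to 9 for KO_IL4 vs WT_IL4, 13 to 16 and 3 to 6 for WT_IL4 vs WT_Ctrl, 1 to 2 and 0 to 1 for KO_IL4 vs KO_Ctrl, 2 to 13 and 8 to 11 for WT_Ctrl vs WT_Pre, 14 to 18 and 8 to 10 for KO_Ctrl vs KO_Pre, 11 to 15 and 4 to 6 for WT_IL4 vs WT_Pre and 14 to 19 and 9 to 14 for KO_IL4 vs KO_Pre. The difference in IL-4 effect ranged over 0 to 2 and 0 to 2, and that in culture effect over 1 to 2 and 0 to 1. Among named genes, Rps23rg1 in KO_Ctrl vs KO_Pre turned to -0.0025 under quantile normalization and Rps19 in the same comparison to -0.078 with the dark corner covariate. The cause of these changes was not tested.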

Other observations

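Before culture the arrays numbered 10 had the highest median of the 81 genes in each genotype, at 0.165 in WT_Pre and 0.122 in KO_Pre, against -0.014 to 0.030 in the 8 arrays numbered 6 to 9. For Rpl37a, a large-subunit protein, these arrays lay at 0.45 and 0.48 and the arrays numbered 5 at 0.45 and 0.41, and for Rpl12, of the stalk base, at 0.38 and 0.39 and at 0.36 and 0.24. Rplp0 was lowest in these arrays, with -0.25 and -0.26 in those numbered 10 and -0.29 and -0.30 in those numbered 5.

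In KO_Ctrl, array 8 held the highest ratio of Rpl10l (2.30, with -0.40 to 0.63 in the other 4), of Rps23rg1 (1.31, with 0.29 to 0.60) and of Rpl14 (1.00, with 0.17 to 0.44).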
